A study of Homo sapiens with 4 samples.

Results

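The regions described are the short intervals between neighbouring protein-coding genes, and the question is how often BRD8 sits at them in HCT116 and SW480 cells. A pair was counted where consecutive, non-overlapping coding genes of the RefSeq gene table (GRCh38.p14, chromosomes 1 to 22 and X) were separated by a gap of 1 to 1000 bp. This gave 2077 pairs out of 17222 gaps between blocks of coding genes, and the pairs hold 3807 genes, of which 347 belong to 2 pairs. The median gap was 266 bp. A pair was called bound when the summit of a BRD8 peak, its highest point, lay in the gap or within 500 bp of it. The comparison was made with isolated ends, the 24320 ends of coding genes with no other coding gene within 5 kb, called bound when a summit lay within 500 bp of the end. The rule uses gene positions and no BRD8 value.

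HCT116 and SW480 are established human colorectal cancer cell lines, untreated here and kept in serum-containing McCoy's 5A (HCT116) or Leibovitz's L-15 (SW480) medium. Each line gave 1 library precipitated with a polyclonal BRD8 antibody from formaldehyde-fixed chromatin cut by micrococcal nuclease, and 1 input library whose own signal was not analysed here. The peak lists hold 22303 HCT116 and 12874 SW480 peaks on the chromosomes used. With 1 ChIP library per line and different media, the line, the medium and the library cannot be told apart, no test between lines or between sets of genes was made, and the 95% intervals cover counting error only.

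BRD8 is a bromodomain subunit of the TIP60/NuA4 complex, which acetylates histones H4 and H2A and is linked to exchange of the variant H2A.Z around transcription start sites. Where neighbouring genes point away from each other, their starts share a short stretch of DNA known as a bidirectional promoter. Such promoters are typically rich in CpG, poor in TATA boxes, and often drive housekeeping genes of metabolism, the ribosome, DNA repair and the cell cycle. Genes may also follow each other on the same strand (tandem) or meet at their 3′ ends (convergent), and a convergent gap holds no start of either gene.

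The DNA between the genes of 4 divergent pairs bound in both lines is shown first, with that of 1 divergent pair bound in neither line for contrast. The bound pairs were taken among divergent pairs with a gap of up to 250 bp and an exact start in the RefSeq promoter table. They are the 3 of highest fold enrichment in HCT116, of which CCDC47/DDX42 also had the highest fold in SW480, and INTS7/DTL, the next by SW480 fold. They stand beside COL4A1/COL4A2, a textbook bidirectional promoter of type IV collagen. Each sequence runs 5′ to 3′ on the strand of the named gene, from 250 bases before its start to 50 from the start on, and capitals mark the gap between both genes.
CCDC47 (of CCDC47/DDX42, chr17:63773548-63773847, minus strand): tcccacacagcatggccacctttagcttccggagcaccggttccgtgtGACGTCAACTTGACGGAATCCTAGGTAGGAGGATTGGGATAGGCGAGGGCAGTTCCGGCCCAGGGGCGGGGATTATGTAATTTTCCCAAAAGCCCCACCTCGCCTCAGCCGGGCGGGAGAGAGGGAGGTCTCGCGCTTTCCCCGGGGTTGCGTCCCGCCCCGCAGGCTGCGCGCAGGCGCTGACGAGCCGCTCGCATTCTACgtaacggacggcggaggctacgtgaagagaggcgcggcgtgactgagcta
MRPL18 (of TCP1/MRPL18, chr6:159789562-159789861, plus strand): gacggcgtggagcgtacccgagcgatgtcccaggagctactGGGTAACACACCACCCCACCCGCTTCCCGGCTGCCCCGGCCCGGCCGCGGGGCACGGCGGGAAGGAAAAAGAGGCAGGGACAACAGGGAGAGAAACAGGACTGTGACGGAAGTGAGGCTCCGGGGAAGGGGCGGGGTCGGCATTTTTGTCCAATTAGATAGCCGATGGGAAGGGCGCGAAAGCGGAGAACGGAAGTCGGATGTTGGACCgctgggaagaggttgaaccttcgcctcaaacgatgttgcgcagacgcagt
GTF3C4 (of DDX31/GTF3C4, chr9:132669785-132670084, plus strand): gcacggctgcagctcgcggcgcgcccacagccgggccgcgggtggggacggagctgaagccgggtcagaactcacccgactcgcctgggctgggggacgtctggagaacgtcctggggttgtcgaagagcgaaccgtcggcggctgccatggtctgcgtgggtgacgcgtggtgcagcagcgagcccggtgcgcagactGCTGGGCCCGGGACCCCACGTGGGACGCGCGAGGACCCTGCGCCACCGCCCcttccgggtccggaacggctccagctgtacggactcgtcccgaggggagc
DTL (of INTS7/DTL, chr1:212035498-212035797, plus strand): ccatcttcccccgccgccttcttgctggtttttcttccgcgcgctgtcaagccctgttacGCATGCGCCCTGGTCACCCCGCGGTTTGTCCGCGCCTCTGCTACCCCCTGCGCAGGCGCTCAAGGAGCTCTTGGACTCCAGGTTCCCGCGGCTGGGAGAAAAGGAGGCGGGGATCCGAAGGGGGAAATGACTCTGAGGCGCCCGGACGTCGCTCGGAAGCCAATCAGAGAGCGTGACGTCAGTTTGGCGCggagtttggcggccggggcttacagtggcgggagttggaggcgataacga
COL4A2 (of COL4A1/COL4A2, chr13:110307034-110307333, plus strand): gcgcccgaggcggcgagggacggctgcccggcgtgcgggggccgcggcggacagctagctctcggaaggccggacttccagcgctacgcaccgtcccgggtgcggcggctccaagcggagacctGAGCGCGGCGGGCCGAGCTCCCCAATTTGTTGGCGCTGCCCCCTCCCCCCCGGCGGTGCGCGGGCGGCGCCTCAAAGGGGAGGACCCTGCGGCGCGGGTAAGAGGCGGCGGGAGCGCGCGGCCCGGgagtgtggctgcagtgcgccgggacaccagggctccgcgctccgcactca

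All 5 windows are rich in G and C, at 64.3% in CCDC47, 63.0% in MRPL18, 73.3% in GTF3C4, 64.7% in DTL and 77.7% in COL4A2. The ratio of observed to expected CpG lay between 0.950 in GTF3C4 and 1.00 in CCDC47 and COL4A2, so the unbound collagen promoter did not stand below the bound ones in CpG. The CCDC47 window holds an exact CREB-type element, TGACGTCA, and a reversed ETS core, CCGGAAG. The DTL gap opens with the NRF1 element GCATGCGC and also holds CCAAT and TGACGTCA. The DDX31/GTF3C4 gap holds the E-box CACGTG, and the ETS core follows at the GTF3C4 start. Of the 9 motifs searched, only CCAAT and GGGCGG were found in the window of the bound MRPL18 and in that of the unbound COL4A2. A match describes the letters and does not show that a factor binds.

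Among all pairs, 1014 of 2077 were bound in HCT116, or 48.8% (46.7 to 51.0, Wilson), against 15.2% of isolated ends. In SW480, 497 pairs were bound, or 23.9% (22.1 to 25.8), against 7.13% of isolated ends. For all coding gene ends, close or not, the shares were 18.1% in HCT116 and 8.60% in SW480. Pairs thus exceeded isolated ends by 33.6 percentage points in HCT116 (31.4 to 35.8, Newcombe) and by 16.8 in SW480 (15.0 to 18.7). Isolated ends include 9250 known 3′ ends, bound in 0.886% of cases in HCT116 and 0.400% in SW480, beside 9882 known starts. The mix of starts and 3′ ends was not matched between pairs and isolated ends. A pair window is also longer than the window of an end and holds 2 ends. Counted per end, 42.5% of pair ends in HCT116 and 20.9% in SW480 were bound. The differences from isolated ends were then 27.3 points (25.7 to 28.9) and 13.8 points (12.6 to 15.1). With a median gap of 266 bp, the other end of a pair usually lies within 500 bp as well. The same summit can then count for both ends, so counting per end does not fully remove the effect of holding 2 ends.

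The pair windows cover 2.81 Mb in all and took in 1076 HCT116 summits, 4.82% of the list, and 551 SW480 summits, 4.28%. Among the strongest 1000 peaks by q, 15.1% of HCT116 and 12.1% of SW480 summits fell in a pair window. With each list ordered by q and cut into 10 equal classes, the share was 13.7% in the strongest class of HCT116 and 1.39% in the weakest. In SW480 it was 11.8% in the strongest class and 2.02% in the weakest.

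The promoter table gave a strand for 15812 of 19974 coding genes (79.2%), and so an orientation for 1501 pairs, of which 770 were divergent, 387 tandem and 344 convergent. No strand was used for chromosome 8, so its 62 pairs all count as unknown, and results on orientation, isolated starts, base composition and motifs leave that chromosome out. Of divergent pairs, 575 were bound in HCT116 (74.7%, 71.5 to 77.6) and 335 in SW480 (43.5%, 40.0 to 47.0). Of tandem pairs, 180 were bound in HCT116 (46.5%) and 59 in SW480 (15.2%). Of convergent pairs, 18 were bound in HCT116 (5.23%) and 2 in SW480 (0.581%). The 576 pairs of unknown orientation lay between, at 41.8% in HCT116 and 17.5% in SW480.

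**Figure D1:**
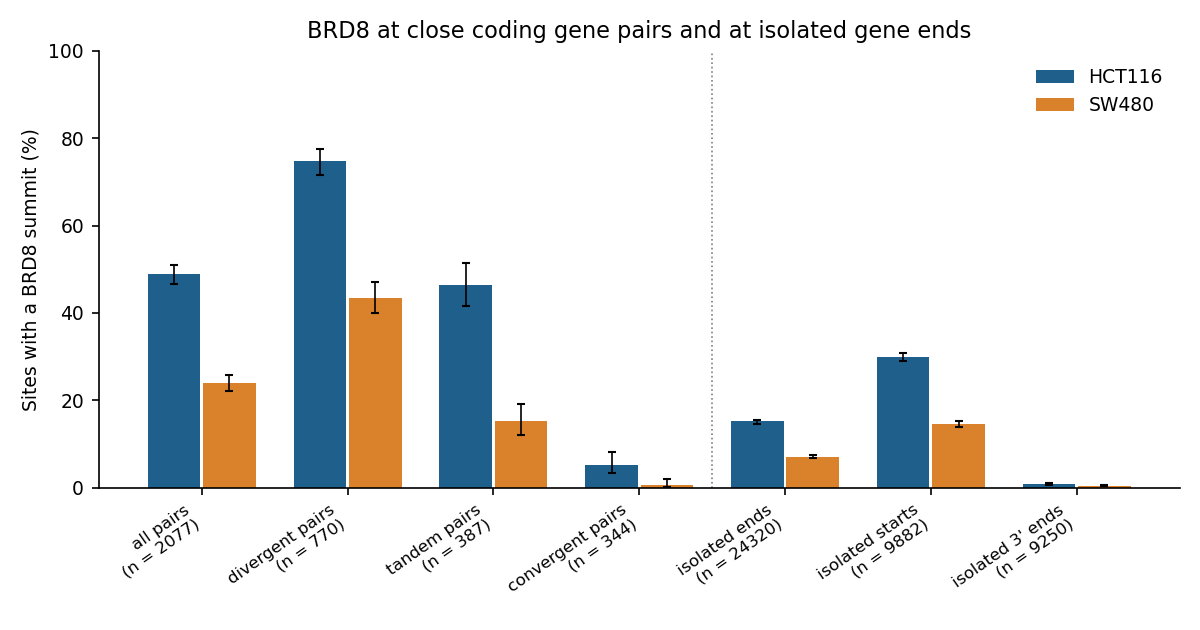
Share of regions bound by BRD8 (y axis, percent, from 0) in HCT116 and SW480 for all close gene pairs, for pairs of known orientation, and for isolated gene ends, starts and 3′ ends. Bars give the share, error bars the 95% Wilson interval, and divergent pairs stand highest in both lines, at 74.7% and 43.5%.

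Isolated gene starts, the fitting comparison for a divergent pair, were bound in 29.9% of 9882 cases in HCT116 and 14.5% in SW480. Divergent pairs exceeded them by 44.8 points in HCT116 (41.5 to 47.9) and 29.0 in SW480 (25.5 to 32.6). Taken start by start, divergent starts were bound in 69.9% of 1540 cases in HCT116 and 39.0% in SW480. These shares were 40.0 points (37.5 to 42.4) and 24.5 points (22 to 27.1) above isolated starts. Here too the same summit can lie within 500 bp of both starts and count for each, as in the counts per divergent start that follow. Using any start listed for a gene in place of its outermost one, 69.9% of divergent genes against 33.7% of isolated genes were bound in HCT116, and 39.8% against 16.5% in SW480. Counting only summits in the gap of a divergent pair, against summits within 250 bp of an isolated start, turns both differences negative, at -9.32 points in HCT116 and -5.00 in SW480. That window is narrower than the isolated one in most pairs and leaves out the inside of both genes, where most summits lay.

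Tandem pairs differed less from their counterparts. The starts in tandem pairs were bound in 41.1% of 387 cases in HCT116 and 14.5% in SW480, which is 11.2 points above isolated starts in HCT116 (6.32 to 16.2) and -0.0511 points from them in SW480 (-3.29 to 3.86). Their upstream 3′ ends were bound in 28.7% of cases in HCT116 and 9.04% in SW480, against 0.886% of isolated 3′ ends in HCT116 and 0.400% in SW480. In all bound tandem pairs the summit lay nearer the downstream start than the upstream 3′ end in 124 of 180 HCT116 pairs (68.9%) and 40 of 59 SW480 pairs (67.8%). A window on the 3′ end can reach the next gene's start. Which summits the windows of bound 3′ ends held was not counted. Convergent pairs exceeded isolated 3′ ends by 4.35 points in HCT116 (2.44 to 7.24) and by 0.181 in SW480 (-0.267 to 1.70).

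The bound share of divergent starts was lower beyond 1000 bp than at shorter distances. In HCT116 the bound share was 68.3% at gaps of up to 100 bp, 73.3% at over 100 to 250 bp, 69.1% at over 250 to 500 bp and 56.4% at over 500 to 1000 bp. Farther apart it was 35.4% at up to 2000 bp, 36.2% at up to 5000 bp and 38.1% at up to 20000 bp. In SW480 the same classes gave 39.8%, 41.3%, 36.0%, 31.8%, 24.0%, 19.8% and 17.6%. Classes up to 500 bp had overlapping intervals within each line, and all classes beyond 1000 bp were lower, although in SW480 each class overlapped the next. These are counts per start, and at short gaps 1 summit can lie within 500 bp of both starts and count for each. Counted per pair, the bound shares of divergent pairs over the 4 classes up to 1000 bp were 69.5%, 75.8%, 76.0% and 81.8% in HCT116 and 40.6%, 43.7%, 44.6% and 49.1% in SW480. These shares per pair did not fall with the gap as the shares per start did. The pair window is longer at wider gaps, and the intervals of neighbouring classes overlapped. Over all distance classes, tandem starts ranged from 29.6% to 53.6% in HCT116 and from 11.1% to 17.9% in SW480. At the limit of the rule itself, over pairs of any orientation, gaps of over 900 to 1000 bp were bound in 37.1% of 116 pairs in HCT116 and 12.9% in SW480, while gaps of over 1000 to 1100 bp were bound in 36.8% of 76 in HCT116 and 15.8% in SW480.

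**Figure D2:**
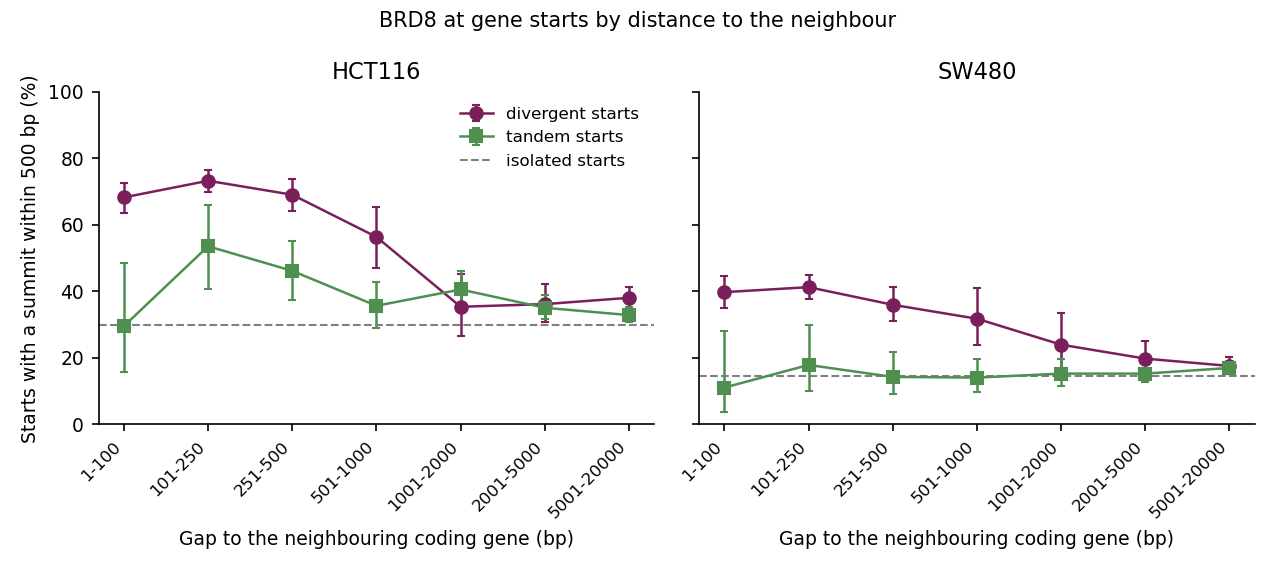
Share of gene starts with a BRD8 summit within 500 bp (y axis, percent) by the distance to the neighbouring coding gene (x axis, bp classes), for divergent and tandem starts in each line. Points are shares, error bars 95% Wilson intervals and the dashed line the share of isolated starts, and divergent starts up to 250 bp apart reach 73.3% in HCT116 and 41.3% in SW480.

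At short gaps the summit rarely lay between the genes. In bound divergent pairs it was in the gap in 71 of 575 pairs in HCT116 (12.3%) and 28 of 335 in SW480 (8.36%), although the gap makes up 18.3% and 18.5% of the windows of those pairs. With gaps of up to 100 bp it was in the gap in 1.46% of HCT116 and 1.25% of SW480 pairs, and with gaps of over 100 to 250 bp in 2.31% and 2.00%. With gaps of over 500 to 1000 bp it was there in 40.0% of HCT116 and 37.0% of SW480 pairs. For divergent pairs with gaps up to 250 bp this comes to 115 summits per Mb of gap against 748 per Mb of flank in HCT116, and 57.5 against 461 in SW480. For divergent pairs with wider gaps, up to 1000 bp, the density was 657 per Mb of gap against 565 per Mb of flank in HCT116, and 243 against 396 in SW480. The gap was thus the denser part at wide gaps in HCT116 and the sparser part in the other 3 cases. The summits were spread over both genes: of those inside a gene, 253 of 504 in HCT116 and 165 of 307 in SW480 lay in the gene to the right, at higher coordinates.

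Measured from the nearer start, the median summit lay 142 bp inside the gene in HCT116 (quartiles 91.5 to 192) and 163 bp inside in SW480 (118 to 222). It was inside a gene in 87.7% of bound divergent pairs in HCT116 and 91.6% in SW480, and from 100 to below 250 bp inside in 57.4% and 62.4%. Bound isolated starts had summits on both sides of the start, with 33.0% in HCT116 and 34.4% in SW480 lying from 100 to below 250 bp inside the gene. A further 27.1% and 25.2% lay from 150 to below 350 bp upstream. Few summits lay less than 50 bp from a start, at 3.30% of divergent pairs and 3.99% of isolated starts in HCT116, and 1.79% and 1.53% in SW480. In a divergent pair the upstream side of one start is often the inside of the other gene, and positions were taken from the nearer start. A summit upstream of one start can thus count as inside the other gene. Neither the inside class nor the upstream class can therefore be compared directly with isolated starts.

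**Figure D3:**
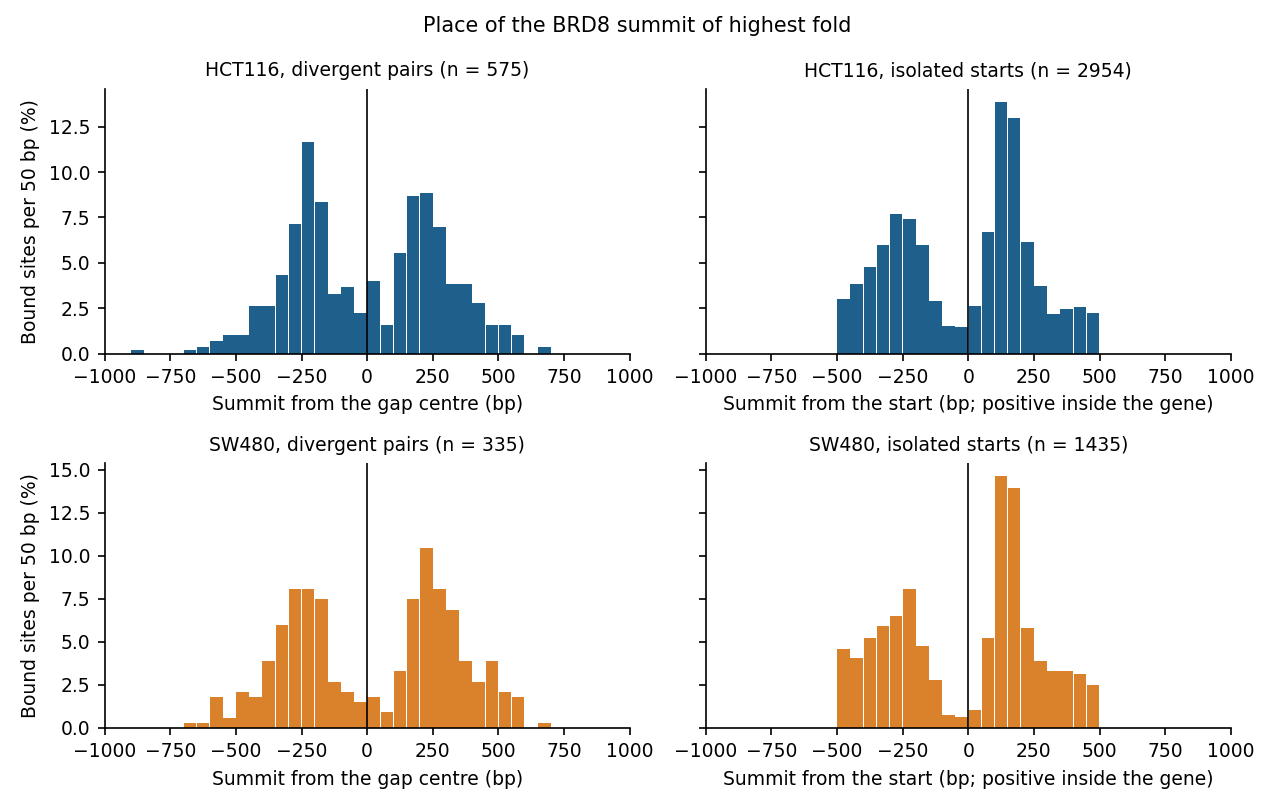
Position of the BRD8 summit in bound divergent pairs, measured from the centre of the gap (left panels, x axis in bp), and at bound isolated starts, measured from the start (right panels, x axis in bp, positive inside the gene), with HCT116 above SW480. Bars give the share of bound sites per 50 bp (y axis, percent), and in all 4 panels the summits form one group on each side of the centre line with few in between.

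The peak region, which is wider than its summit, held both divergent starts in 69.6% of bound divergent pairs in HCT116 and 27.2% in SW480. Median region widths were 1370.0 bp at divergent pairs and 1042 bp at isolated starts in HCT116, and 634 and 551 bp in SW480. A pair with 2 or more summits was uncommon, with 32 divergent pairs in HCT116 and 33 in SW480, and in 29 and 31 of these the summits lay inside both genes.

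Peak strength is given as the authors' fold enrichment of ChIP signal over local background at the summit. In HCT116 the median fold was 5.58 at divergent pairs, 4.49 at tandem pairs and 3.60 at convergent pairs, against 4.87 at isolated starts and 3.70 over all peaks. In SW480 it was 3.54, 3.12 and 2.90, against 3.33 at isolated starts and 3.34 over all peaks. The quartiles of divergent pairs (4.22 to 7.45 in HCT116, 2.82 to 4.34 in SW480) overlapped those of isolated starts (3.81 to 6.49 and 2.73 to 4.15). The median pileup, the number of ChIP fragments over the summit recovered from fold and p, was 40.0 at divergent pairs and 33.0 at isolated starts in HCT116, and 44.0 and 40.0 in SW480.

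Base composition differed with orientation, and with binding it did not move alike in all sets. The median CpG ratio was 0.881 at divergent starts, 0.733 at tandem starts and 0.750 at isolated starts, over the 1411 of 1540 divergent and 8662 of 9882 isolated starts with a promoter window. Median GC was lower in bound than unbound divergent starts, at 64.7% against 66.7% in HCT116 and 63.7% against 66.0% in SW480. In isolated starts it was higher in bound ones, at 65.3% against 59.7% and 64.3% against 61.7%. The CpG ratio was higher in bound starts of both sets, at 0.896 against 0.853 for divergent and 0.871 against 0.599 for isolated starts in HCT116. In SW480 it was 0.908 against 0.866 and 0.884 against 0.704. Divergent starts were bound more often than isolated ones in every class of CpG ratio in HCT116, with 12.5% against 2.92% below 0.4, 43.1% against 20.1% from 0.4 to 0.6, 67.5% against 38.3% from 0.6 to 0.8, 74.3% against 48.1% from 0.8 to 1.0, and 75.4% against 53.1% from 1.0 on. In SW480 the shares were 12.5% against 1.25%, 12.1% against 9.25%, 38.1% against 17.6%, 41.1% against 23.4% and 45.3% against 28.7%, and in the second class the interval of the difference included 0 (-3.67 to 13.8). Weighting isolated starts to the CpG classes of divergent starts gave 70.2% against 44.5% in HCT116, a difference of 25.7 points, and 39.3% against 21.9% in SW480, a difference of 17.4 points. At short gaps the windows of both starts of a divergent pair share bases, so their CpG ratios are not independent. CpG content is 1 property that differs between the sets, and transcription, which these data do not measure, was not compared.

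**Figure D4:**
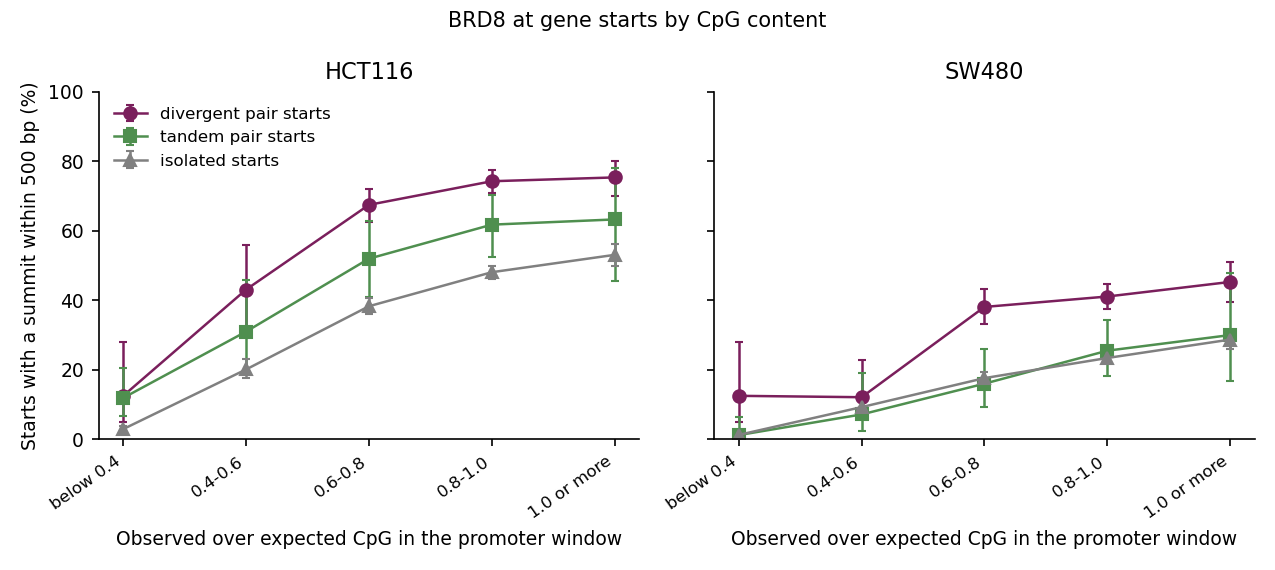
Share of gene starts with a BRD8 summit within 500 bp (y axis, percent) by the ratio of observed to expected CpG in the promoter window (x axis, 5 classes), for divergent pair starts, tandem pair starts and isolated starts in each line. Points are shares with 95% Wilson intervals, and from a ratio of 0.6 on divergent starts lie above isolated starts in both lines.

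The promoter windows, of 300 bases each, were searched on both strands for 9 exact motifs, none of which contains another. At the 70.1% of divergent pairs with a gap of up to 250 bp, the windows of both starts can cover the whole gap. A motif there counts for both starts, and a window can also hold bases of the other gene. Shares of divergent starts are therefore not directly comparable with those of isolated starts. The ETS core CCGGAAG was found in 29.6% of divergent starts, 11.4% of isolated starts and 14.5% of all coding starts. Within divergent starts it was found in 34.9% of those bound and 16.9% of those unbound in HCT116, and in 35.3% and 25.8% in SW480. Divergent starts with it were bound in 83.0% of cases in HCT116 and 47.0% in SW480, and those without it in 64.8% and 36.1%. The contrast was not particular to divergent starts. Isolated starts with the core were bound in 64.7% of cases in HCT116 and 34.5% in SW480, and those without it in 27.3% and 12.9%. The NRF1 element GCATGCGC was in 8.43% of divergent and 3.79% of isolated starts (4.45% of all), the YY1 element AAGATGGCG in 5.53% and 2.45% (2.87% of all), and the ZBTB33 element TCTCGCGA in 3.69% and 1.51% (1.77% of all).

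Among bound divergent starts the ZBTB33 element was in 4.95% in HCT116 and 5.23% in SW480, against 0.713% and 2.69% of unbound ones. For isolated starts these shares were 3.10% and 3.45% of bound and 0.777% and 1.16% of unbound ones. The NRF1 element was in 9.39% of bound and 6.18% of unbound divergent starts in HCT116, and in 7.93% of bound and 8.76% of unbound ones in SW480. At isolated starts it was in 6.28% of bound and 2.63% of unbound ones in HCT116, and in 6.15% and 3.36% in SW480. The YY1 element was in 7.07% and 8.29% of bound and 1.90% and 3.74% of unbound divergent starts. The E-box CACGTG was in 11.3% of bound and 10.2% of unbound divergent starts in HCT116 and in 15.5% and 8.06% in SW480. At isolated starts it was in 12.5% of bound and 6.25% of unbound ones in HCT116, and in 13.8% and 7.22% in SW480. It was in 11.0% of all divergent, 8.23% of isolated and 8.96% of all coding starts. The GC box GGGCGG was in 72.4% of divergent, 56.9% of isolated and 58.5% of all coding starts, and within divergent starts it hardly differed with binding, at 73.1% of bound and 70.8% of unbound starts in HCT116, and 69.9% and 74.1% in SW480. Within isolated starts it was in 73.3% of bound and 49.3% of unbound ones in HCT116, and in 69.4% and 54.6% in SW480.

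CCAAT was in 43.7% of divergent, 36.7% of isolated and 37.1% of all coding starts, and TGACGTCA in 3.54%, 2.64% and 2.70%. The TATA box TATAAA ran the other way, in 3.54% of divergent, 11.1% of isolated and 10.0% of all coding starts. Within divergent starts it was in 2.73% of bound and 5.46% of unbound ones in HCT116, and in 2.16% and 4.44% in SW480. For isolated starts these shares were 5.41% and 13.7% in HCT116, and 5.63% and 12.1% in SW480. The motifs, like CpG content, describe the windows, and their part in binding was not tested.

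A coding gene without a close coding neighbour may still have a non-coding one. Of isolated coding starts, 930 had the start of a long non-coding RNA gene pointing away from them within 1000 bp upstream. These were bound in 49.6% of cases in HCT116 and 28.6% in SW480. Isolated starts with no gene of any type within 5 kb were bound in 27.5% of 6235 cases in HCT116 and 12.6% in SW480. Divergent coding starts exceeded the starts with a divergent long non-coding RNA by 20.3 points in HCT116 (16.3 to 24.2) and 10.4 in SW480 (6.59 to 14.2). Starts with such a non-coding neighbour in turn exceeded those with no gene nearby by 22.1 points (18.7 to 25.5) and 16.0 points (13.1 to 19.1).

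Between the lines, 459 pairs were bound in both, 555 in HCT116 alone, 38 in SW480 alone and 1025 in neither. Of pairs bound in HCT116, 45.3% were also bound in SW480, and of pairs bound in SW480, 92.4% (89.7 to 94.4) were also bound in HCT116. For isolated starts these shares were 39.1% and 80.4% (78.3 to 82.4). The SW480 list is the shorter one. Most of the 38 pairs called in SW480 alone were not without signal in HCT116, since an HCT116 peak region reached into the window of 27 of them (71.1%) with its summit farther away. An SW480 region reached into the window of 23 of the 555 pairs called in HCT116 alone (4.14%).

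At the 459 shared pairs the summits of both lines lay a median of 50 bp apart, and within 100 bp in 66.2%. The fold was higher in HCT116 at 440 of them (95.9%), with a median HCT116 over SW480 ratio of 1.92. The recovered pileup had a median ratio of 1.15 and the local background one of 0.551. The background ratio was thus farther from 1 than the pileup ratio, and fold values of the lines are not comparable as amounts of BRD8.

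**Figure D5:**
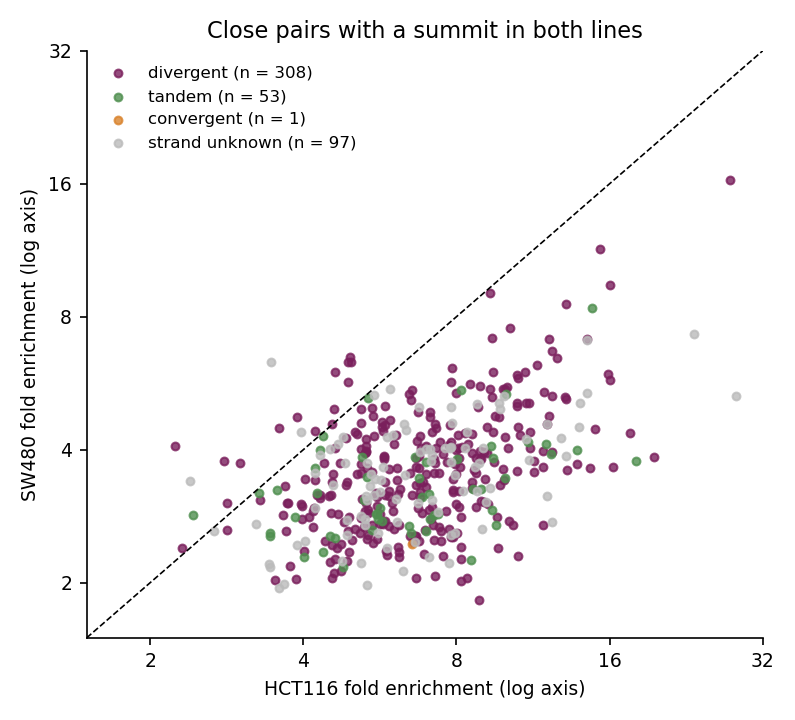
Fold enrichment in HCT116 against SW480 for the close gene pairs bound in both lines, with each pair a point on log axes, colours giving the orientation and the dashed line equal fold. Most points lie on the HCT116 side of equal fold, as 440 of 459 pairs had the higher fold there.

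Groups of genes were set by the start of the gene symbol, and a pair counted once if either gene belonged. All shares are to be read beside the 48.8% of all pairs bound in HCT116 and 23.9% in SW480. Pairs with a mitochondrial ribosomal protein (MRPL or MRPS), which build the ribosome that translates mitochondrial transcripts, were bound in 26 of 34 cases in HCT116 (76.5%, 60.0 to 87.6) and 15 in SW480 (44.1%, 28.9 to 60.5). Pairs with a subunit or assembly factor of the respiratory chain were bound in 28 of 38 cases in HCT116 (73.7%, 58.0 to 85.0) and 15 in SW480 (39.5%, 25.6 to 55.3). Pairs with a cytosolic ribosomal protein were bound in 19 of 29 cases in HCT116 (65.5%, 47.3 to 80.1) and 14 in SW480 (48.3%, 31.4 to 65.6), and all 11 divergent ones among them were bound in both lines, beside 40.0% of all divergent pairs bound in both. Divergent respiratory chain pairs were bound in 20 of 22 cases in HCT116 and 10 in SW480, and divergent mitochondrial ribosomal pairs in 16 of 17 and 12, beside 74.7% of all divergent pairs in HCT116 and 43.5% in SW480. Pairs with a gene of the proteasome, the protease of ubiquitin-marked proteins, reached 10 of 20 in HCT116 (29.9% to 70.1%) and 6 in SW480 (14.5% to 51.9%).

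The other groups had lower shares than all pairs, except transmembrane proteins in SW480. Intervals of zinc finger and transmembrane pairs in both lines, and of solute carrier and histone pairs in SW480, included the share of all pairs. Those of zinc finger pairs were 28.8 to 55.7 in HCT116 and 8.70 to 29.6 in SW480. Transmembrane pairs had 32.7 to 57.5 and 15.0 to 36.5, and solute carrier pairs 24.9 to 45.9 and 10.4 to 27.4. Pairs with a zinc finger (ZNF) gene, of a large family of DNA-binding proteins, were bound in 20 of 48 cases in HCT116 (41.7%) and 8 in SW480 (16.7%). Pairs with a transmembrane protein (TMEM) were bound in 26 of 58 cases in HCT116 (44.8%) and 14 in SW480 (24.1%). Pairs with a solute carrier (SLC), a membrane transporter, were bound in 26 of 75 cases in HCT116 (34.7%) and 13 in SW480 (17.3%). Core histone pairs, many of whose genes lie in clusters expressed during DNA replication, were bound in 6 of 23 cases in HCT116 (26.1%, 12.5 to 46.5) and 3 in SW480 (13.0%, 4.54 to 32.1), with 2 of the 11 divergent ones in HCT116 and 1 in SW480. Pairs with a tissue-restricted gene such as a keratin or a clustered receptor gene were bound in 2 of 14 cases in HCT116 and 0 in SW480, where a count of 0 allows up to 21.5% (Wilson). Both bound ones, KRTCAP2/TRIM46 and NRBP1/KRTCAP3, hold a keratinocyte-associated protein and no keratin. The makeup by orientation differed between groups, with 22 of 38 respiratory chain pairs and 24 of 75 solute carrier pairs divergent, and its part in these shares was not tested. Divergent pairs alone were bound in 6 of 6 cases in HCT116 and 4 in SW480 for the proteasome, 13 of 22 and 7 for zinc fingers, 15 of 24 and 9 for transmembrane proteins, and 14 of 24 and 9 for solute carriers. KRTCAP2, KRTCAP3, PSME3IP1 and RPL7L1 entered their groups by symbol alone.

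The pairs of highest HCT116 fold in each group follow. PPP1R10/MRPS18B, a nuclear regulator of protein phosphatase 1 beside a protein of the mitochondrial ribosome, had folds of 15.3 in HCT116 and 11.4 in SW480. In both lines the summit of highest fold lay in its gap of 596 bp on chromosome 6 (30617244 to 30617839). The SW480 window held 2 summits. RPL4/ZWILCH, a large-subunit ribosomal protein beside a kinetochore protein, had 16.0 and 9.42. VPS52/RPS18 had 14.4 and 7.13, with the summit 177 bp inside RPS18 in HCT116 and 165 bp inside VPS52 in SW480. NDUFS1/EEF1B2, a complex I subunit beside a translation elongation factor, had 13.8 in HCT116, and in SW480 a region of fold 6.46 with its summit 529 bp inside EEF1B2, just beyond the window.

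TATDN1/NDUFB9, with another complex I subunit, had folds of 9.74 in HCT116 and 4.96 in SW480. Among the other groups, HPD/PSMD9 had 7.10 and 4.87. MRPL50/ZNF189 had 10.5 and 5.90, ERH/SLC39A9 11.5 and 6.23, and TMEM186/PMM2 14.6 and 3.64. FIZ1/ZNF524 had 7.93 in HCT116 and was unbound in SW480 by summit. SLC39A6/ELP2 had 8.65, KRTCAP2/TRIM46 8.42, NRBP1/KRTCAP3 7.08 and PSME3IP1/RSPRY1 8.92, each in HCT116 with no SW480 region in the window. The histone pairs H3C1/H4C1 (5.44 and 3.52) and H2AC25/H2BC26 (4.92 and 2.81) were the highest of their group.

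The pair of highest fold in HCT116 was CBX5/HNRNPA1 on chromosome 12 (gap 54280123 to 54280725), a heterochromatin protein beside an RNA-binding protein, with 28.3 in HCT116 and 5.29 in SW480. CCDC47/DDX42, an endoplasmic reticulum protein beside an RNA helicase, had 27.6 in HCT116 and the highest SW480 fold of any pair, 16.3. Its summits of highest fold lay 163 bp inside DDX42 in HCT116 and 144 bp inside in SW480, past the gap printed above. The SW480 window held 2 summits. METTL1/EEF1AKMT3 on chromosome 12 (gap 57772106 to 57772613), a tRNA methyltransferase beside a methyltransferase of elongation factor eEF1A, had 23.4 and 7.31. TCP1/MRPL18, a subunit of the CCT chaperonin beside a mitochondrial ribosomal protein, had 19.6 and 3.85, with summits 269 and 273 bp inside MRPL18.

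The tandem pair PPIH/YBX1, a spliceosomal cyclophilin and the Y-box protein, had 18.0 and 3.77 with both summits in its gap of 763 bp on chromosome 1 (42681655 to 42682417). DDX31/GTF3C4, a helicase beside a subunit of the RNA polymerase III factor TFIIIC, had 17.5 and 4.37, with summits 175 and 124 bp inside DDX31. OIP5/NUSAP1, a centromere protein beside a spindle protein, had 16.2 and 3.65. ANGPTL6/PPAN, an angiopoietin-like protein beside a ribosome biogenesis factor, had 16.0 and 5.76. KCTD9/CDCA2 had 16.2 in HCT116 and no SW480 region. In this top group of 10 in HCT116, fold values ran from 16.0 to 28.3.

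The SW480 top group further held EARS2/UBFD1 (13.1 in HCT116, 8.56 in SW480), INTS7/DTL (9.30 and 9.05), SENP3/EIF4A1 (14.7 and 8.39), TPRA1/MCM2 (10.2 and 7.55) and SERP1/EIF2A (9.41 and 7.16). INTS7/DTL joins an Integrator subunit and a substrate receptor of a ubiquitin ligase of the cell cycle, and its folds were nearly equal in the lines. LOC124904276/RBM15, in which RBM15 is an RNA-binding protein of the RNA methylation machinery, had 7.45 in SW480, and in HCT116 a region of fold 11.7 with its summit 661 bp inside LOC124904276.

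Other pairs called in SW480 alone had the same layout. GART/SON, a purine synthesis enzyme beside a splicing protein, had a summit of fold 3.59 in SW480, 185 bp inside SON. In HCT116 a region of 5248 bp and fold 25.1 reached into the window, with its summit 900 bp inside GART. HSPD1/HSPE1, the mitochondrial chaperonin and its co-chaperonin, had 3.22 in SW480, and in HCT116 a region of 5362 bp and fold 12.0 with its summit 629 bp inside HSPD1. SLC25A40/DBF4, CCDC51/ATRIP and CNPPD1/RETREG2 had folds of 4.28, 5.38 and 4.10 in SW480, and HCT116 regions of fold 10.9, 5.64 and 5.45 with summits 844, 638 and 971 bp inside a gene.

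Of pairs called in HCT116 alone, TXNDC12/BTF3L4 (15.4) and ATPSCKMT/CCT5 (11.2) had SW480 regions of fold 5.65 and 3.98 with summits 540 and 668 bp inside a gene. POLR2I/TBCB, an RNA polymerase II subunit beside a tubulin cofactor, had 13.3 in HCT116 and no SW480 region.

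Of 25 textbook neighbours listed, 18 met the gap rule, and 14 of these were bound in HCT116 and 9 in SW480. Those of the 18 with a known orientation were all divergent. For comparison, 48.8% of all pairs and 74.7% of divergent pairs were bound in HCT116, and 23.9% and 43.5% in SW480. BRD8 itself shares a divergent promoter with KIF20A, a mitotic kinesin, and this pair had a fold of 8.18 in HCT116, with the summit in the gap, and 2.82 in SW480, with the summit 190 bp inside KIF20A. NPAT/ATM, which joins the histone gene coactivator and the DNA damage kinase, had 12.1 and 4.58. Its summits of highest fold lay 105 and 133 bp inside ATM, and the HCT116 window held 2 summits. TMEM258/FEN1, with the flap endonuclease of DNA replication, had 9.46 and 3.76, and UFD1/CDC45, with the replicative helicase cofactor, 7.79 and 3.76. PRKDC/MCM4 had 6.98 and 4.02, HIRA/MRPL40 6.80 and 3.13, and SIRT3/PSMD13 6.09 and 4.33.

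The type IV collagen pairs, whose genes encode basement membrane chains, were unbound or below the median divergent fold of 5.58 in HCT116. COL4A1/COL4A2 had no region in its window in either line. COL4A4/COL4A3 had 3.85 and COL4A6/COL4A5 3.99 in HCT116, and neither had an SW480 region. TAP1/PSMB9, genes of antigen processing, had 2.93, TK1/AFMID 4.77, SARS2/MRPS12 5.86 and PDCD10/SERPINI1 5.06 in HCT116, with no SW480 region in their windows. SURF1/SURF2 was unbound by summit in both lines, although an HCT116 region of fold 4.10 reached it with a summit 533 bp inside SURF1.

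The bound convergent pairs named here were chosen for mention after their values were seen, and include folds above the divergent median of 5.58 in HCT116. As a set, bound convergent pairs had a lower median fold, 3.60 over 18 peaks in HCT116 and 2.90 over 2 in SW480. PLCB3/BAD, a phospholipase C beside a pro-apoptotic BCL2-family protein, was the only one bound in both lines, with 6.53 in HCT116 and 2.45 in SW480. LTC4S/MGAT4B had 5.84, RPL7L1/PEX39 5.41 and CDT1/APRT 3.14 in HCT116, and BMAL1/BTBD10 had 3.34 in SW480.

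By chromosome, all orientations together, the bound share ran from 27.8% on chromosome X to 76.5% of 17 pairs on chromosome 18 in HCT116. In SW480 it ran from 14.2% on chromosome 19 to 66.7% of 12 pairs on chromosome 21. Chromosome 19, with the most pairs (211), was at 43.1% in HCT116. On chromosome 7, the shares of the lines were closest among chromosomes with over 50 pairs, at 36.4% of 77 pairs in HCT116 and 32.5% in SW480.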

How the data were processed

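BRD8 ChIP-seq peak lists of HCT116 and SW480, with 1 ChIP library per line, were used as deposited by the authors. The submitters' processing notes name Trimmomatic 0.33, Bowtie2 2.4.1, MACS2, deepTools and the GRCh38 build. How duplicates and weak alignments were treated is not stated in the sources used. The deposited fold enrichment is a ratio of ChIP signal to local background at each summit. Each deposited entry also has a −log10 p, a −log10 q, a score and the distance from the region start to the summit in bp. Peaks were called per library, so no replicate check exists, and no read totals are given.

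Summits were placed at 1-based GRCh38 positions. Coding genes, 19974 in all, came from the RefSeq table of GRCh38.p14. Overlapping genes were merged into blocks, and 12 gaps of 0 bp were left out. Strand, starts and 300-base promoter windows (250 before and 50 from the start on) came from the RefSeq promoter table of the same build, and pairs without strand for both genes are kept as unknown. A promoter window was used where its start lay within 50 bp of the gene's outer end. The value of a pair or end is its peak of highest fold. Pileup and background were solved from fold and p by scanning pileups up to 2999 with a relative tolerance of 0.0001, and a solution was found for 99.991% (HCT116) and 99.977% (SW480) of the peaks. Shares have 95% Wilson intervals and differences Newcombe intervals. These cover counting error only, and genes are not replicates. Standardised shares weight isolated starts to the CpG classes of divergent starts. Counting and window code was tested on simulated data. Python 3.11.15, pandas 2.3.3, numpy 2.4.6 and matplotlib 3.10.9 were used.

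The pairs, gene groups, motifs and alternatives were chosen with earlier results of these data known. Pairs named are the 10 of highest fold per line, the 5 of highest −log10 q bound in 1 line alone, the textbook neighbours that met the gap rule, and the 2 of highest HCT116 fold in each of 9 gene groups. Alternatives covered the peak threshold, list length, window, overlap in place of the summit, isolation distance, largest gap, unit and chromosomes. Non-coding neighbours, CpG classes and any listed start were added after the data were seen.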

Additional observations from a re-analysis of the deposited data

Results flagged for a closer look

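The starts in tandem pairs, the downstream genes of neighbours on the same strand, were set beside isolated starts in each line. The difference was 11.2 percentage points in HCT116 (6.32 to 16.2) and -0.0511 in SW480 (-3.29 to 3.86), and the 2 values have opposite signs. The SW480 value is near 0 and gives no direction, with a share of 14.5% in both sets. Counted per pair, the differences were 16.6 points in HCT116 and 0.724 in SW480 (-2.59 to 4.70). The difference between the lines was not tested, since each has 1 ChIP library.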

How the results depend on the processing

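Over 156 values from alternatives, 92 stayed within the interval of the main value, 60 moved and 4 turned sign, and 56 of 60 differences stayed above 0. All 4 sign changes came from counting summits in the gap only, against 250 bp around an end. Divergent pairs minus isolated starts became -9.32 points in HCT116 and -5.00 in SW480. Pairs minus isolated ends became -0.00463 (-1.24 to 1.37) and -0.711 (-1.46 to 0.199), and both of these intervals include 0. Most summits lie inside the genes, outside such a window, and 18.3% of HCT116 and 14.1% of SW480 pair summits lie in the gap. With it the bound shares of pairs were 9.29% in HCT116 and 3.47% in SW480 (2.79% in both lines), of divergent pairs 9.35% and 3.64%, and the median folds 4.79 and 3.62 at pairs and 4.93 at isolated ends in HCT116.

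With −log10 q of at least 5, pairs were bound in 41.6% in HCT116 and 17.1% in SW480 (15.6% in both), divergent pairs in 66.4% and 31.3%. The differences from isolated ends were 29.2 and 12.6 points, and of divergent pairs from isolated starts 41.3 and 21.9. Median folds were then 5.59 and 3.87 at pairs and 5.27 and 3.77 at isolated ends. With −log10 q of at least 2 the fold at SW480 isolated ends was 3.41. With lists of equal length, HCT116 had 42.3% of pairs, 67.3% of divergent pairs, a difference of 29.5 points and folds of 5.55 at pairs and 5.20 at isolated ends.

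With windows of 1000 bp, 56.0% of pairs in HCT116 and 27.7% in SW480 were bound (26.6% in both), 83.4% and 50.3% of divergent pairs, the HCT116 difference was 36.5 points and the fold at isolated ends 4.68. With any overlap of the region these were 55.9%, 26.0% and 25.5% of pairs, 83.1% of divergent pairs and 36.6 points in HCT116. With gaps up to 500 bp, 53.9% and 27.7% were bound (25.5% in both), and the differences were 38.7 and 20.6 points.

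Per end, the shares were 42.5% and 20.9% (18.5% in both), and 69.9% and 39.0% for divergent starts. The differences were 27.3 and 13.8 points, and 40.0 and 24.5 from isolated starts. In these counts the same summit can count for both ends of a pair. Against isolated genes over both ends, the differences were 22.6 and 11.7 points for pairs, and 48.5 for divergent pairs in HCT116. Added after seeing the data, CpG classes gave 25.7 and 17.4 points and any listed start 36.2 and 23.3 points for divergent starts.

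No paired analysis was possible because each line has 1 ChIP library, and no library was left out for the same reason. Read totals are not given, and an unbound pair is one with no summit called at the depth of these libraries.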

Other observations

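Divergent pairs called in both lines had summits a median of 47.5 bp apart, and isolated starts bound in both lines 51.0 bp apart. Isolated 3′ ends were bound in both lines in 12 of 9250 cases (0.130%, 0.0742 to 0.227). Of convergent pairs, 1 of 344 was (0.291%, 0.0513 to 1.63). Isolated ends of unknown strand were bound in 12.6% of 5188 cases in HCT116 and 5.03% in SW480.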
